A study of Drosophila melanogaster with 2 samples.

Results

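The pair-rule genes eve, ftz, h, run, odd, prd, slp1, slp2 and opa were examined for peaks of a tagged CG34376 protein in the Drosophila melanogaster embryo. These 9 genes, taken by name from the Ensembl release 115 annotation, are 9 of 13945 protein-coding genes on the chromosome arms present in the peak lists. The gene h, hairy, is listed there under the symbol hry and was matched through its RefSeq synonym, and all 9 genes had the same coordinates in both annotations. Chromatin immunoprecipitation with sequencing was carried out on whole embryos of both sexes aged 0 to 24 h, from a transgenic line that makes CG34376 with a C-terminal green fluorescent protein, on fragments of 200 to 800 bp. The 2 libraries, biological replicates 3 and 2, form 1 group with no untreated or wild-type group, and the regulatory sequence that drives the transgene is not given in the sources used here. A free-text label calls both libraries input controls, whereas the assay title and antibody field describe an immunoprecipitation, and both were treated as immunoprecipitations.

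Pair-rule genes encode transcription factors that divide the early embryo into segments. Most are transcribed in a series of stripes, while opa is expressed in a broad domain of the trunk in the early embryo. The stripes are driven in eve, h and run largely by separate stripe enhancers that read maternal and gap factors, and the stripes in turn set the expression of segment polarity genes such as engrailed and wingless. Several members, among them h, eve and prd, are used again later in the nervous system or other tissues. The embryos here were pooled over all stages, so binding in a few cells and weak binding in many cells cannot be told apart.

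Each locus was taken as the gene body with 10 kb on each side, and every summit of the thresholded list and of the pooled candidate list in it was read. The thresholded list holds 7025 summits, which are also in the pooled list of 30000 candidates. Signals are the peak caller's values in the authors' own units and were compared only within a list, where the thresholded ones run from 162.9 to 3316 with a median of 251.6. Read depth is unknown, and no test was made, because there is 1 group and the members are not replicates.

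Fewer of the pair-rule loci held a thresholded summit than of all protein-coding genes, and h was the only member with one at its own start. Of the 9 loci, 4 held a thresholded summit, against 71.3% of all protein-coding genes, and 1 of 9 members had such a summit at a promoter, no more than 500 bp from a start, against 30.1% of all protein-coding genes. The loci of ftz, run, odd, prd and opa held none. Most members have few other genes nearby. Of the 7 with at most 5 starts of other genes in the window, 3 held a thresholded summit (42.9%). These were h, slp1 and slp2, and slp1 and slp2 hold the same summit. The share was 50% among all protein-coding genes with at most 5 such starts, in a split made after the values were seen. The summits came to 6 over the merged 209.6 kb of the loci, which is 2.86 per 100 kb, against 5.25 per 100 kb over the chromosome arms. In the loci of h, slp1 and slp2 these summits fell at 5 positions, and the sequences of 4 of them are given first.

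The windows of 201 bp around these summits are shown because they carry the thresholded signal of h and of the slp1 and slp2 pair. They were read on the plus strand of Release 6 of the genome (RefSeq), which is build dm6, and hold no annotated exon. Capitals mark every match, on either strand, to 8 short motifs. GATAAG and the shorter GATAA are letters that GATA factors read, and a match to the longer always holds the shorter. TATCGATA is the DRE element of housekeeping promoters. GAGAG is bound by GAGA factor, CAGGTA by the early activator Zelda, and CACGTG is the E-box of basic helix-loop-helix proteins. The last are ACACTG and, searched with it, CGATAG. A match describes letters only and does not show a bound factor. The first is the upstream summit at the h start, chr3L:8675527-8675727, the next the site downstream of h, chr3L:8683211-8683411, then the far downstream site of h, chr3L:8688729-8688929, and last the site between slp1 and slp2, chr2L:3832398-3832598.
h start: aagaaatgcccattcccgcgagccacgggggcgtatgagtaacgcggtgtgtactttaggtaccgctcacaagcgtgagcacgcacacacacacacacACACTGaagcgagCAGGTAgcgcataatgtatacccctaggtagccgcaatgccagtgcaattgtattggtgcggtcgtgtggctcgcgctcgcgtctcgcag
h downstream: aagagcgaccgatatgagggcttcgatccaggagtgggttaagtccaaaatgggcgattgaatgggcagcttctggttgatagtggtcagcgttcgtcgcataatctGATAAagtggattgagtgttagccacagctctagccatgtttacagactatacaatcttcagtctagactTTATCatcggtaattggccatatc
h far downstream: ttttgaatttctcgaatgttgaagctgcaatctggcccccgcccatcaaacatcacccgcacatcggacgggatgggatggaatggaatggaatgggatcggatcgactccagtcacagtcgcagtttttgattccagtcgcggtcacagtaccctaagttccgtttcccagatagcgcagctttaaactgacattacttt
slp1 and slp2: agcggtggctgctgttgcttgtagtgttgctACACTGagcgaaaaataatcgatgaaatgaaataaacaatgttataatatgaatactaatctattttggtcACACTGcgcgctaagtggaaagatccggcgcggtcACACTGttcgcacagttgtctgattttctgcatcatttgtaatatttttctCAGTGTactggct

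The site between slp1 and slp2 held 4 matches to ACACTG, at 69 bp before and 2, 37 and 88 bp after the summit. Of all 7025 thresholded windows, 984 (14.0%) held at least 1 match to these letters, 5 (0.0712%) at least 3 and 1 (0.0142%) at least 4, so that this window was the only one with 4. The members and motifs were chosen with earlier results of these data known, and this rarity was not tested. The window at the h start held 1 match to ACACTG, beginning 2 bp before the summit, and 1 to CAGGTA 11 bp after it. CAGGTA was in 3.93% of all thresholded windows. The site downstream of h held 2 matches to GATAA, and 23.0% of all thresholded windows held at least 2, while 53.0% held at least 1. The far downstream site held none of the 8 motifs. The remaining promoter summit of h, whose window runs into the transcribed sequence and is not printed, held GATAAG 42 bp before the summit and GAGAG 53 bp before it. Over the 6 thresholded windows of the loci GATAAG and GAGAG were each in 1, against 25.4% and 30.6% of all thresholded windows. TATCGATA, CACGTG and CGATAG were in none of them, against 3.32%, 3.46% and 12.3% of all thresholded windows. The h start window was rich in G and C, at 57.2%, and the slp1 and slp2 window had 40.3%, beside a mean of 41.8% ± 7.77 (SD over 7025 windows).

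The gene h encodes a basic helix-loop-helix repressor that recruits the corepressor Groucho, and its locus carried the most signal. It lies on the plus strand of 3L from 8675759 to 8679253 (FBgn0001168) and has starts at 8675759 and 8675955. A single interval of 704 bp, from 8675342 to 8676045, carried a pair of summits. The stronger, at 8675627, lay 132 bp upstream of the first start, with a signal of 482.3 and rank 870 of the thresholded list. The weaker, at 8675828, lay 69 bp downstream of the same start, with a signal of 326.3 and rank 2094. Both replicates resolved the same pair. Replicate 3 placed summits at 8675603 with rank 1132 and at 8675823 with rank 2467, and replicate 2 placed them at 8675616 with rank 888 and at 8675817 with rank 1598. Of all protein-coding genes, 95.2% had a lower signal for their strongest pooled candidate within 500 bp of a start.

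Both other thresholded summits of h lay in intergenic sequence past the end of the gene. The summit at 8683311, 4058 bp past the gene end, had a signal of 201.4 and rank 5086, with rank 8636 in replicate 3 and rank 3547 in replicate 2. It was thus outside the 7025 highest candidates of replicate 3 and inside those of replicate 2. The summit at 8688829, 9576 bp past the gene end, had a signal of 202.6 and rank 5040, with rank 4693 in replicate 3 and rank 6055 in replicate 2. It was the farthest inside the window, and the next thresholded summit, just outside it, lay 10624 bp past the gene end with a signal of 171.7. Its nearest start was that of lncRNA:CR44526 and not of h, and proximity does not tell whether either gene is its target. No start of another gene lies in the h locus, which held 15 pooled candidates, against a median of 8 for all protein-coding genes, and 86.3% of those genes had fewer. Of the 15, 12 lay past the first start in the direction of transcription beyond the promoter, 2 at the promoter and 1 upstream of it, at 2997 bp with a signal of 118.4. The 11 candidates below the threshold had signals of 40.9 to 140.9, and the strongest of them, at 8683992, reached 86.5% of the lowest thresholded signal. The stripe enhancers of h mainly lie on the upstream side. The 10 kb of that side inside the window held no thresholded summit outside the promoter. Sequence farther upstream is not described here, and the enhancers themselves were not located, so their binding cannot be judged.

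**Figure D1:**
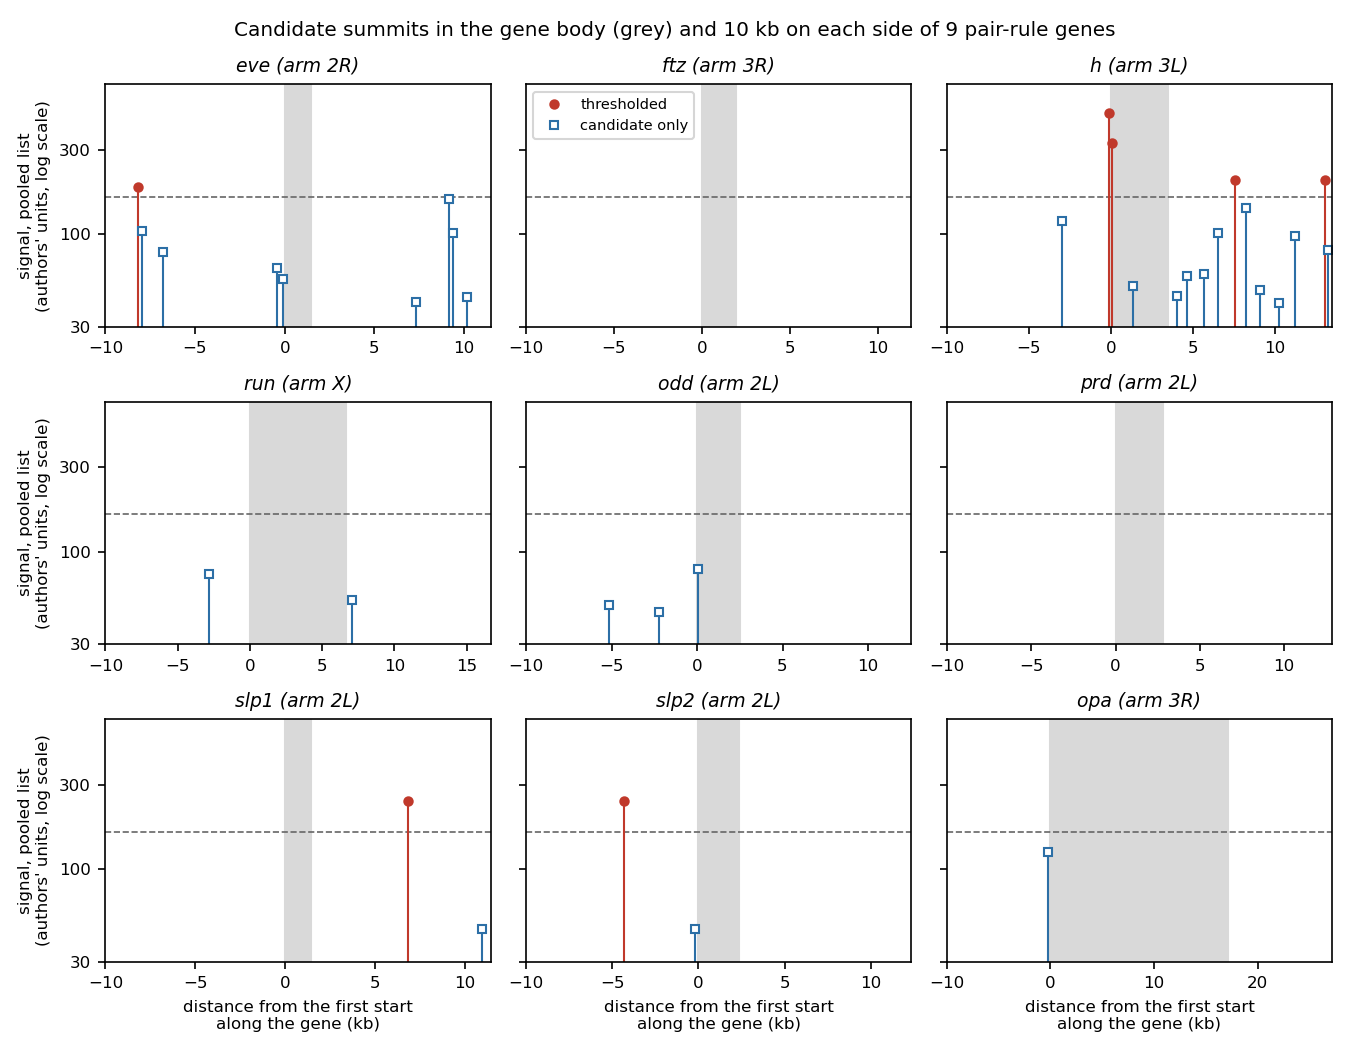
Pooled candidate summits at the 9 pair-rule loci, by distance in kb from the first start along the gene (horizontal) and signal in the authors' units on a log scale (vertical). Filled red circles are thresholded summits, open blue squares candidates only, the grey band is the gene body and the dashed line the lowest thresholded signal, 162.9. The h panel holds 4 of the thresholded summits, slp1 and slp2 show the same summit from either side, and the panels of ftz and prd are empty.

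The slp1 and slp2 genes encode closely related forkhead factors with overlapping functions in segmentation and lie side by side on the plus strand of 2L. slp1 (FBgn0003430) runs from 3825675 to 3827099 and slp2 (FBgn0004567) from 3836840 to 3839185. Their 2 windows overlap and share 1 thresholded summit, at 3832498, which lies 5399 bp past the end of slp1 and 4342 bp upstream of the slp2 start. It had a signal of 243.3 and rank 3733 in the thresholded list. Replicate 3 gave a signal of 91.6 and rank 5599 there, and replicate 2 a signal of 151.6 and rank 2884, with summits 20 bp and 2 bp from the pooled one. The deposited interval is only 121 bp long, against a median of 484 bp, and 33 of 7025 thresholded intervals are as short or shorter. Neither gene had a thresholded summit at its start. The single candidate there, 205 bp upstream of the slp2 start, had a signal of 45.8 and overlapped no candidate of either replicate.

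The gene eve (FBgn0000606), which encodes a homeodomain repressor, runs from 9979319 to 9980795 on the plus strand of 2R, between separate groups of stripe enhancers on each side. Its locus held 1 thresholded summit, at 9971136, but this lay 7 bp upstream of the start of CG12134 and 8183 bp from the eve start. That summit had a signal of 185.8 and rank 5794, with rank 5192 in replicate 3 and rank 7560 in replicate 2. The strongest candidate of replicate 2 in the locus was another one, at 9988498, with rank 6434 and 661 bp upstream of a TER94 start. In the pooled list that site had a signal of 157.4, just under the lowest thresholded signal of 162.9. Its −log10 q in the authors' list was 3.69, which lies within the range of the thresholded summits, 3.51 to 3.99. That value did not always rise with the signal. In the h locus a candidate below the threshold, with a signal of 140.9, had 3.75, and a thresholded one of 202.6 had 3.53. At the eve start itself the list held 2 candidates, 408 bp and 87 bp upstream, with signals of 64.7 and 55.7. They have ranks 18709 and 21377 of 30000 in the pooled list.

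The gene opa encodes a zinc finger factor of the Zic family that acts in the timing of the segmentation network. It is the longest member, from 4852813 to 4869979 on 3R (FBgn0003002). Its locus held 1 candidate, at the promoter 239 bp upstream of the start, with a signal of 124.6 and a −log10 q of 3.44. That signal is 76.5% of the lowest thresholded one. The candidate overlapped one of rank 8645 in replicate 3 and one of rank 10180 in replicate 2, so it fell short of the 7025 highest in both. No candidate lay inside the opa gene body.

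The gene odd (FBgn0002985), a zinc finger factor, lies on the minus strand of 2L from 3604224 to 3606756, and its locus held 3 candidates, all below the threshold. The strongest, with a signal of 79.4, lay 58 bp downstream of its start, and overlapped candidates of rank 19618 in replicate 3 and of rank 12996 in replicate 2. The other 2 had no counterpart in replicate 3. The gene run (FBgn0003300), the founding member of the Runx family, lies on the plus strand of X from 20690670 to 20697321, and its locus held 2 candidates, with signals of 75.0 and 53.1. Both were intergenic, and both overlapped a candidate of replicate 3, at ranks 12382 and 18426, but none of replicate 2. Replicate 3 had 3 candidates in the run locus and replicate 2 had 0.

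For ftz, a homeodomain gene (FBgn0001077) in the Antennapedia complex on 3R, and prd, a Pax gene (FBgn0003145) on 2L, the pooled list held no candidate at all. ftz runs from 6864324 to 6866244 on the plus strand and prd from 12082995 to 12085827 on the minus strand. A locus with no candidate was found for 1160 of all protein-coding genes (8.32%), so that 7 of 9 members had 1 or more, against 91.7% of all protein-coding genes. The ftz locus was empty in both separate replicates as well. The prd locus had 1 candidate in replicate 3, 2 bp upstream of the CG14947 start at rank 15084, and 0 in replicate 2. Each replicate list also ends at 30000 candidates, so a weaker site would not be listed. At a promoter, 5 of 9 members had a pooled candidate, namely eve, h, odd, slp2 and opa, against 60.4% of all protein-coding genes.

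**Figure D2:**
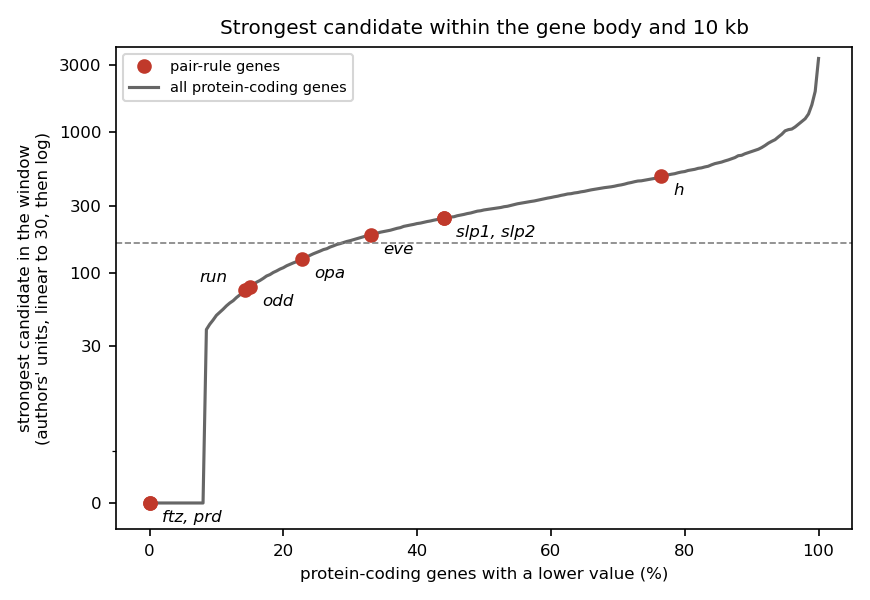
Strongest pooled candidate in the gene body and 10 kb on each side (vertical, authors' units, linear up to 30 and log above) for the 9 pair-rule genes (red circles) and for all protein-coding genes (grey line), by the percentage of protein-coding genes with a lower value (horizontal). The dashed line is the lowest thresholded signal, 162.9. Genes with no candidate are set at 0. The members spread from 0 for ftz and prd to 482.3 for h, and 76.5% of protein-coding genes have a lower value than h.

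Distances to the nearest thresholded summit spread over a wide range. From the nearest start of the gene they were 69 bp for h, 4342 bp for slp2, 6823 bp for slp1, 8183 bp for eve, 12493 bp for odd, 17759 bp for prd, 28806 bp for run, 31398 bp for opa and 45088 bp for ftz. The median was 12493 bp for the members and 3888 bp for all protein-coding genes, of which 9.12% lay farther from a summit than ftz. For the 5 members with no thresholded summit in the locus, the nearest one lay no more than 500 bp from a start of another gene in 4 cases. Over all thresholded summits, 61.2% lay that close to a start. The summit nearest to odd was 29 bp upstream of a Ugt36A1 start, that nearest to prd 165 bp upstream of a ThrRS start, that nearest to run 53 bp upstream of a CG1835 start and that nearest to opa 17 bp downstream of a CG14657 start. The summit nearest to ftz was farther from a start, 658 bp upstream of tRNA:Lys-TTT-2-1. At up to 20 kb from a start, 6 of 9 members had a thresholded summit, against 80.2% of all protein-coding genes.

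**Figure D3:**
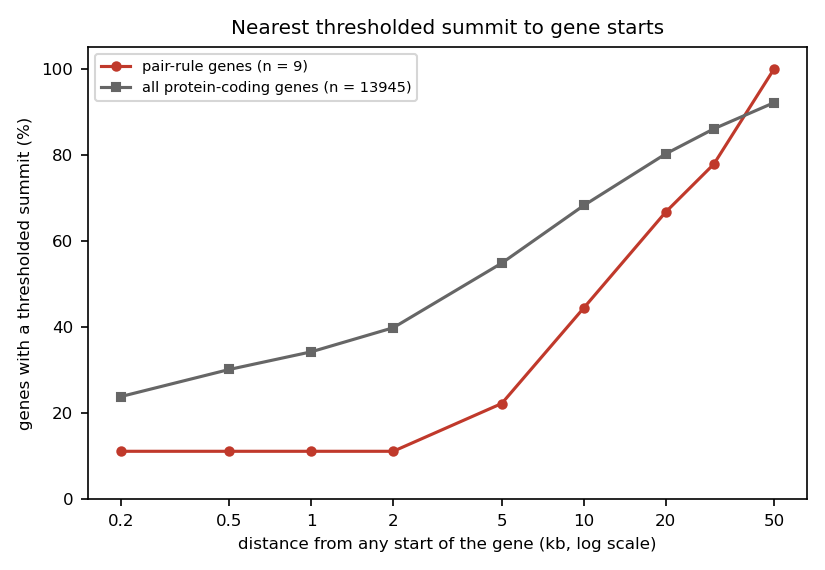
Percentage of genes with a thresholded summit within a given distance of any of their starts (vertical), by that distance in kb on a log scale (horizontal), for the 9 pair-rule genes (red circles) and all 13945 protein-coding genes (grey squares). The pair-rule line stays at 11.1% up to 2 kb, where the other line is at 39.8%, and reaches 44.4% at 10 kb, against 68.2%.

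The pair-rule loci also hold few other genes, with a median of 1 start of another gene in the window, against 7 for all protein-coding genes, and over all protein-coding genes the share of loci with a summit was higher where starts were more numerous. The windows were 21.4 to 37.2 kb long with a median of 22.5 kb, against a median of 22.2 kb for all protein-coding genes. Among all protein-coding genes, 50% of the 5275 with at most 5 starts of other genes in the window had a thresholded summit there, against 83.6% of the 7405 with 6 to 12. Of the members, 7 had at most 5 such starts, and 3 of these 7 loci held a thresholded summit, which is 42.9%. Those of slp1 and slp2 are 2 of the 3 and hold the same summit. The 2 members with more starts, eve and prd, had 9 and 8, and the 1 thresholded summit between them was that at CG12134. This split was made after the values were seen, and the part of gene density in the low count was not tested.

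The 6 thresholded summits were at promoters in 3 cases and intergenic in 3, and 4 had a member as the gene of the nearest start. Over all thresholded summits 61.2% were at promoters, 29.1% in introns and 6.69% intergenic. The median signal of the 6 was 222.9, below the 251.6 of all thresholded summits, and a median of 37.6% of thresholded summits ranked under them. The 32 candidates of the loci were made up of 12 at promoters, 18 intergenic and 2 inside genes but outside coding and untranslated exons. Promoters thus held 37.5% of them, against 41.7% of all pooled candidates, and intergenic sequence 56.2%, against 12% of all pooled candidates. These shares lean on the h locus, which held 15 of the 32 and no start of another gene. The part of the few other genes in the windows was not tested. The median signal of the 32 candidates was 79.2, against 82.1 for all pooled candidates, and 18.8% of them were thresholded, against 23.4% of all.

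Most of the thresholded summits at the loci were among the highest candidates of both replicates. The thresholded list was derived from these same replicates, so a lower share among the weaker candidates follows in part from that selection. Of the 6 thresholded summits, 4 overlapped the 7025 highest candidates of both replicates (66.7%), against 83.9% of all thresholded summits. The pair at the h start, which lies in 1 interval and overlaps the same replicate candidates, makes up 2 of these 4. The exceptions were the CG12134 summit, which ranked lower in replicate 2, and the near downstream summit of h, which ranked lower in replicate 3. Of the 26 candidates below the threshold, 1 overlapped the highest candidates of both replicates. It lay 200 bp from the far downstream summit of h and overlapped the same replicate candidates. In all, 9 of 32 candidates lacked a counterpart in at least 1 replicate. The same shares over all candidates below the threshold and over all pooled candidates were not computed. The 1 of 26 and the 9 of 32 therefore do not mark out these loci. Taking the 7025 highest candidates of each replicate alone, the loci with a summit were those of h, slp1, slp2 and eve in both, and h alone had 1 at its start. At the eve locus, however, the replicates reached this through different sites, near CG12134 in replicate 3 and near TER94 in replicate 2.

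**Figure D4:**
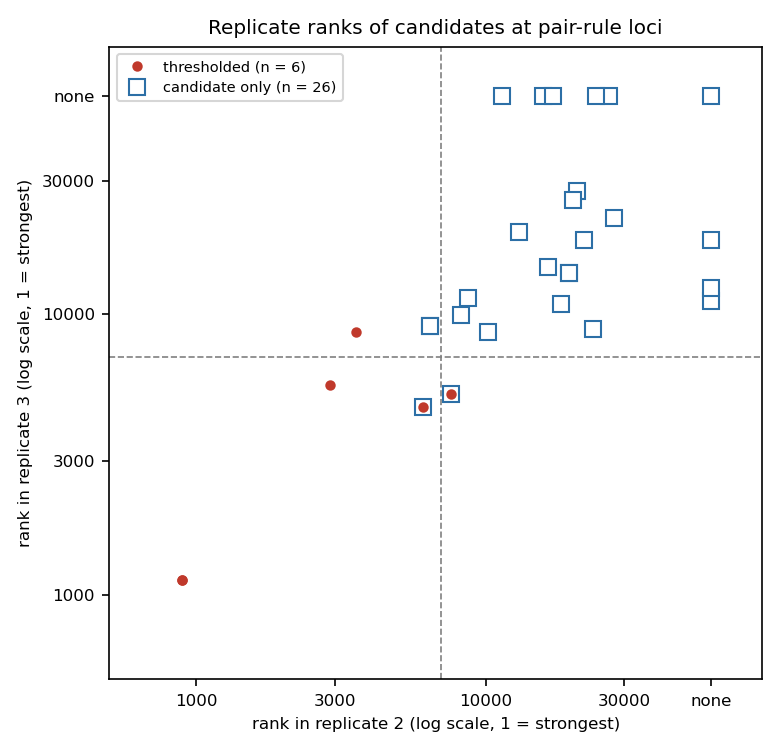
Rank in replicate 3 (vertical) against rank in replicate 2 (horizontal) of the strongest candidate that overlaps each of the 32 pooled candidates at the pair-rule loci, both on log scales with 1 the strongest. Red circles are the 6 thresholded summits, of which the pair at the h start shares 1 point, open squares the 26 others, and "none" marks a missing counterpart. Dashed lines are at rank 7025, and 9 squares lie on a "none" edge.

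Genes that act with the pair-rule genes in segmentation, and paralogs of the members, were counted in the same way, by list. Among upstream factors, 3 of 10 had a thresholded promoter summit, led by the gap gene hb with a signal of 666.8 and Stat92E, the transcription factor of the JAK-STAT pathway, with 452.3. The third was cad, a homeodomain factor of the posterior embryo. All 6 of the partner genes had one, against 30.1% of all protein-coding genes. The strongest of these were ftz-f1, a nuclear receptor that binds with Ftz, with 515.9, and gro, the Groucho corepressor, with 320.7. The others were CtBP, Bgb, Bro and the corepressor gene Atro, which is annotated as Gug. Bgb and Bro encode partners of Runx proteins. Among paralogs of the members 1 of 9 had one (11.1%, against the same 30.1%). It was bowl, a zinc finger gene related to odd, with 393.4. Among the downstream genes 1 of 8 had one (12.5%, against the same 30.1%), namely Ten-m, a teneurin gene, with 217.6. Within the gene body and 10 kb, thresholded summits were found for 4 of 9 pair-rule genes, 5 of 10 upstream, 6 of 6 partner, 1 of 9 paralog and 4 of 8 downstream genes, against 71.3% of all protein-coding genes. The partner windows were 20.7 to 70.7 kb long and held 4 to 12 starts of other genes, while those of the pair-rule genes were 21.4 to 37.2 kb long and held 0 to 9. The windows of Bgb and Bro overlap, as do those of slp1 and slp2, so a summit can count for both genes of such a pair. The difference between these short lists was not tested.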

How the data were processed

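ChIP-seq peak lists of 2 libraries of 1 group were used, on build dm6 per the labels. Per the labels' file listings, the authors called candidates on each replicate and on both replicates pooled, against 1 control alignment, and derived the optimal thresholded list by an irreproducible discovery rate procedure. The caller is not given in the sources used here, nor is the aligner. In each deposited line the signal is in the caller's own units and the −log10 q value is as the authors gave it. Read counts are not used here, so depth is unknown.

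Summits were annotated with Ensembl release 115, leaving out transposable elements and pseudogenes, and 2 thresholded summits that pointed past their interval were set to its last base. A summit was a promoter summit within 500 bp of any start, and otherwise the first class it lay in, taken in the order 5' untranslated exon, coding exon, 3' untranslated exon, intron, intergenic. A replicate's rank at a peak is that of its strongest candidate overlapping by at least 1 bp. Motifs were counted within 100 bp of a summit. All 42 listed symbols were matched, 2 of them by a RefSeq synonym. Thresholded lists with 1 replicate left out used the 7025 highest candidates of the other. Counts were made with Python 3.11.15 and pandas 2.3.3, and the counting was tested on simulated data. The named genes are the 9 members, the genes of the nearest starts and the 2 of each network list with the highest promoter signal. CtBP, Bgb, Bro, Atro and cad, which complete counts of promoter summits, and the genes at other sites described were named after their values were seen. The members, lists and motifs were chosen with earlier results of these data known. The other settings tried changed the flank, the list, the start distance, the overlap and the motif window, and the division by number of other starts was added after the values were seen. With 1 group there is no pattern over conditions to compare genes by.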

Additional observations from a re-analysis of the deposited data

How the results depend on the processing

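The results for the pair-rule loci rest on 6 summits and therefore moved with the width of the locus and the length of the list, while h was the only member with a summit at its start in every list but the pooled one. With the gene body only, the loci with a summit fell to 1, the summits to 1, and the share at promoters, that nearest to a member, that found in both replicates and that with GATAAG were each 100%, with a median signal of 326.3 above 70.2% of the list. With 5 kb on each side there were 2 loci with a summit, 100% nearest to a member, a median signal of 284.8 above 58.5% of the list, and 25.0% with GATAAG. With 20 kb there were 15 summits, 26.7% nearest to a member, a median signal of 232.4 and 20% with GATAAG. In the thresholded summits with signals above the median of that list, 1 locus held 2 summits, all (100%) at promoters, nearest to a member and in both replicates, with a median signal of 404.3 above 57.8% of that list and 50% with GATAAG. In the 1000 strongest peaks 1 locus held 1 summit, again 100% for these 3 shares, with a signal of 482.3 above 13% of that list and 0% with GATAAG. In the whole pooled list, 7 loci held 32 summits and 5 members had one at a start. There 56.2% were nearest to a member, the median signal was 79.2 and 15.6% were in both replicates, a share not computed over all pooled candidates. Of the 6 thresholded summits, 66.7% had GATAAG with 200 bp on each side, a width at which the share over all thresholded windows was not computed. GATAA was in 33.3% with 100 bp on each side, against 53.0% of all thresholded windows. Leaving out either replicate gave 4 loci with a summit and 1 member bound at its start in each case, 5 to 6 summits, 33.3% to 60.0% at promoters, 60.0% to 66.7% nearest to a member, a median rank above 33.2% to 54.2% of the list and 16.7% to 20% with GATAAG. The median signal and the overlap of replicates were not computed with a replicate left out, since the lists differ in units and the overlap needs both. No paired analysis was possible because there is only 1 group. Changes by construction follow from fewer or more summits counted, and any other cause was not tested. With read depth unknown, a locus without a summit shows only that none was listed.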
